A study of Saccharomyces cerevisiae with 2 samples.

Results

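Convergent intergenic regions are the stretches between 2 neighbouring genes that are transcribed towards each other, so that each region takes in the 3′ ends of both genes and the start of neither. They were chosen by position alone, as gaps of 100 to 1500 bp between adjacent protein-coding genes of the sacCer3 (R64) annotation on chromosomes I to XVI, with the left gene on the plus and the right gene on the minus strand. The rule gave 1299 of the 5279 gaps in this length range, beside 2610 tandem gaps (both genes read the same way) and 1370 divergent gaps (genes read away from each other). Another 180 convergent gaps were shorter than 100 bp and 34 were longer than 1500 bp. A WT hotspot reached 22 of the 48 gaps of 100 to 109 bp and 15 of the 40 gaps of 90 to 99 bp, just outside the lower limit, and a G170D hotspot reached 18 and 13.

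The study compared wild-type (WT) yeast with a strain that carries the temperature-sensitive allele G170D of the Hsp90 chaperone, both in the W303 background. Both cultures grew in YPD medium at 30 °C, starting at an optical density of 0.25 and reaching 0.65, and both were then held at 37 °C, a temperature non-permissive for the mutant, for 15 min. Nuclei were cut lightly with DNase I, an enzyme that cleaves accessible DNA first, and each strain gave 1 library and 1 deposited list of hotspots, the stretches called as accessible. With 1 library per strain there is no replicate and no test between strains, and intervals below are 95% Wilson intervals over gaps, which cover counting error only.

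In yeast, promoters are usually nucleosome-depleted, since general regulatory factors and chromatin remodellers such as RSC keep nucleosomes away from transcription starts. The 3′ ends of genes can be depleted as well: they hold the poly(A) and termination signals, their DNA is rich in A and T, and polymerase is released there. Tandem and divergent gaps hold both kinds of element or promoters alone, so a convergent gap shows accessibility where a gene-start promoter is absent. Hsp90 folds or stabilises many regulatory proteins and has been linked to RSC and to other chromatin factors.

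The 2 lists held 7050 hotspots in WT (3.83 Mb, mean width 543 bp) and 5988 in G170D (3.33 Mb, 556 bp), and read depth is unknown. The lists therefore differ in length throughout. The main shares were also computed for lists cut to the same number of hotspots, and some of these values are given below. Full cover, changes of 100 bp or more, the way hotspots lie in gaps and contact with promoter windows were not recomputed in this way. Nor were the classes of gap length and start distance, or the cover of flanking genes. The absence of promoters held for most gaps: 38 of the 1299 were reached by a 500 bp window upstream of some coding start, past a short flanking gene, and 45 held an annotated non-coding RNA gene or pseudogene. Leaving out either set kept the WT and G170D shares below within their intervals. In these gaps fewer cut sites per cell and fewer cells with an accessible site cannot be told apart.

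Convergent gaps were accessible less often than gaps with promoters, and most were touched by a hotspot in WT. A WT hotspot overlapped 748 of the 1299 gaps by at least 1 bp (57.6%, interval 54.9 to 60.2), against 75.6% of all 5279 gaps. A G170D hotspot overlapped 648 (49.9%, 47.2 to 52.6), against 69% of all gaps. Tandem gaps stood at 78.1% in WT and 71.1% in G170D, and divergent gaps at 87.9% and 83.1%, and the intervals of the 3 orientations did not overlap in either strain. These shares rest on overlap by 1 bp or more: by midpoint in the gap the convergent shares were 28.5% in WT and 27.5% in G170D, with overlapping intervals, and with the higher-scoring 50% of each list they were 39.7% and 30.6%. With both lists cut to 5988 hotspots the convergent WT share was 53.3% (50.6 to 56.0). The G170D list already has that length, so the WT and G170D shares lay closer together than with the full lists. That interval overlaps the G170D interval, but both shares are over the same gaps, so the overlap does not test their difference. In bases, hotspots covered 185 of 420 kb of convergent gap in WT (44.1%) and 157 kb in G170D (37.3%), against 59.5% and 53.5% of tandem and 70.2% and 65.2% of divergent gap length.

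Around the centre of a convergent gap, accessibility formed a low local maximum. In WT, 42.5% of gaps were covered 50 bp to the left of the centre, 28.2% at 475 bp to the right, which for most gaps lies inside the flanking gene, and 36.6% at 1500 bp to the right. In G170D the centre value was 35.6%, the lowest value was 22.0% at 475 bp to the left, and 32.0% were covered at 1500 bp to the right. At the centre of divergent gaps the cover was 72.8% in WT and 67.9% in G170D, and at the centre of tandem gaps it was 60.6% and 54.6%.

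**Figure D1:**
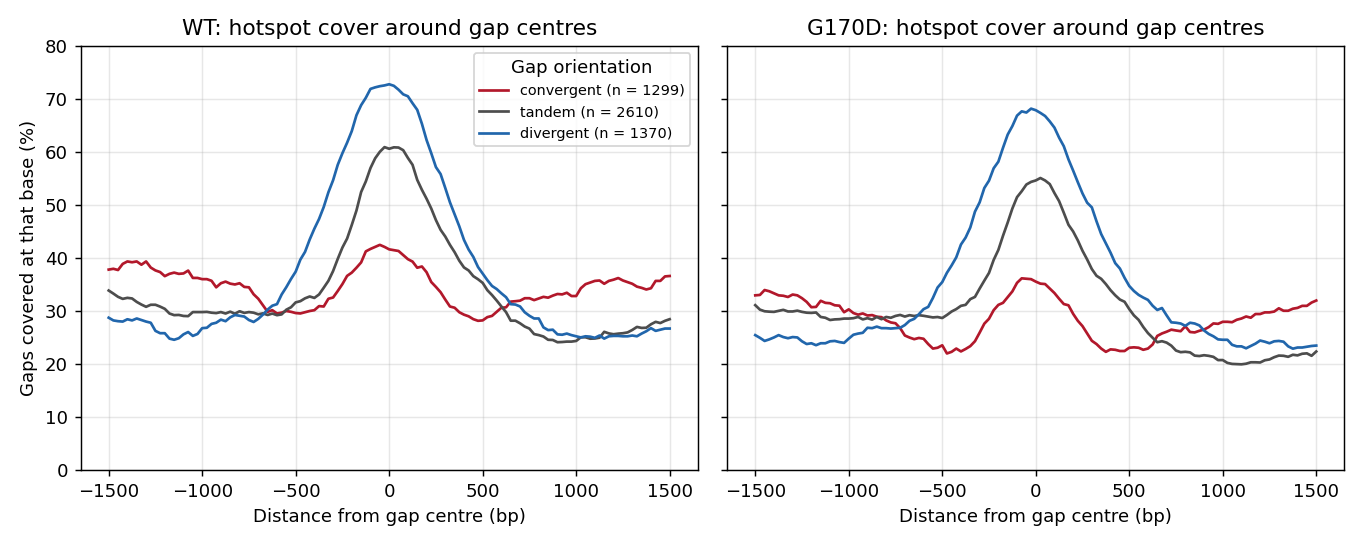
Share of gaps covered by a hotspot (y axis, %) at each distance from the gap centre (x axis, bp, read in the direction of transcription for tandem gaps), in WT (left) and G170D (right), for convergent, tandem and divergent gaps. The convergent curve has a low local maximum near the centre and rises again further out. At the centre itself it stands at 41.6% in WT and 35.6% in G170D, below the tandem and divergent curves.

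Seen from the coding ends of the flanking genes, cover increased on passing from the gene into the gap. In WT it was 27.1% of gene ends at 250 bp before the end of the coding sequence, 38.0% at the end itself and 41.2% at 100 bp beyond it. In G170D the same 3 positions gave 19.8%, 31.6% and 34.7%. Over the last 250 bp of the flanking genes 31.8% of bases were covered in WT and 24.7% in G170D, against 23.0% and 19.1% of all coding bases and 31.8% and 27.6% of the genome.

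Part of the difference between orientations goes with length, since convergent gaps are short: their median was 249 bp, against 390 bp for tandem and 485.5 bp for divergent gaps. Longer convergent gaps were hit more often. A WT hotspot overlapped 48.1% of the 464 gaps of 100 to 199 bp, 56.1% of the 362 gaps of 200 to 299 bp and 64.3% of the 286 gaps of 300 to 499 bp. It overlapped 68% of the 100 gaps of 500 to 799 bp and 80.5% of the 87 gaps of 800 to 1500 bp. Within each of the 5 length classes the convergent share was below the tandem and the divergent share in both strains. At 100 to 199 bp the WT shares were 69.1% in 178 tandem and 81.0% in 84 divergent gaps. At 800 to 1500 bp they were 92.2% in 321 tandem and 91.3% in 254 divergent gaps, where the convergent interval (70.9 to 87.4) overlapped the divergent one (87.2 to 94.2) slightly.

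**Figure D2:**
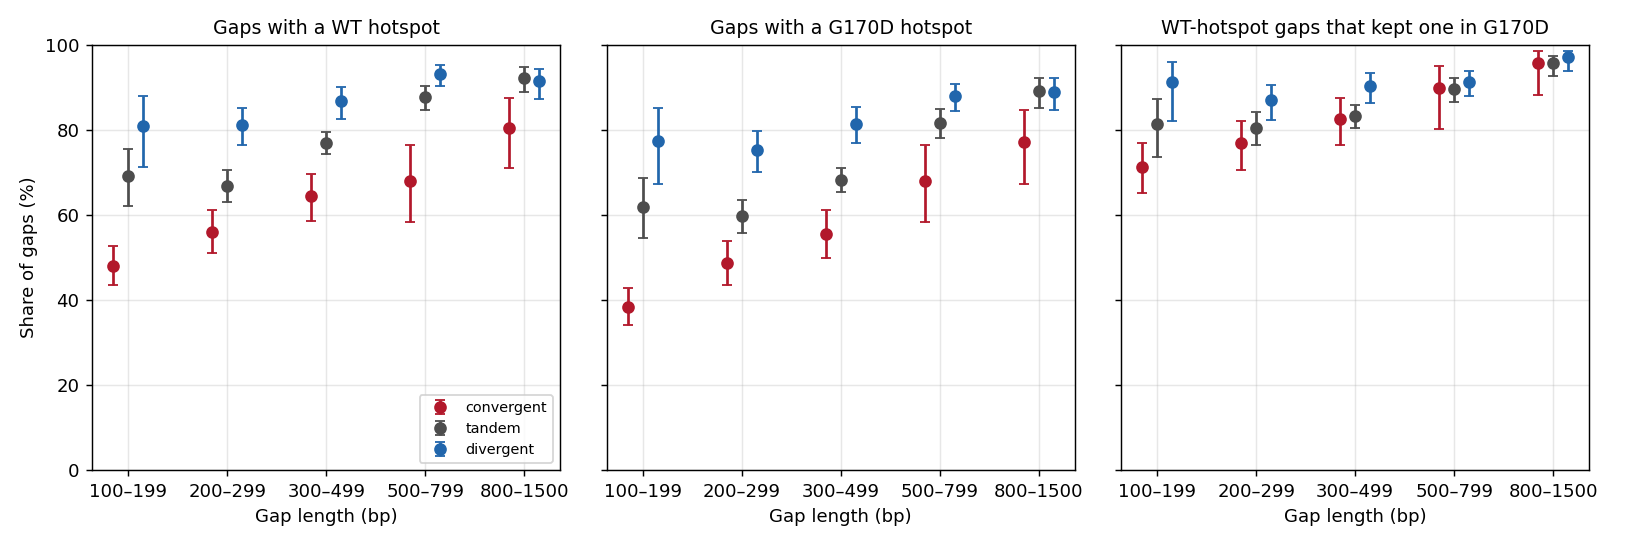
Share of gaps (y axis, %) by gap length class (x axis, bp) with a WT hotspot (left), with a G170D hotspot (middle), and, of gaps with a WT hotspot, with one in G170D too (right). Points are shares and bars are 95% Wilson intervals over gaps: the convergent points lie below the other orientations in the first 2 panels, and in the third they go from 71.3% in the shortest to 95.7% in the longest class.

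The mutant shared most of these accessible gaps. A hotspot was present in both strains in 595 gaps (45.8%, against 65.2% of all gaps), in WT alone in 153 (11.8%, against 10.4%), in G170D alone in 53 (4.08%, against 3.77%) and in neither in 498 (38.3%, against 20.6%). The shares found in 1 strain were thus near the background over all gaps, and the share with none was not. Of the 748 gaps with a WT hotspot, 79.5% (76.5 to 82.3) had one in G170D, against 86.3% of all gaps, 85.8% of tandem and 91.3% of divergent gaps. With both lists cut to 5988 hotspots, 126 gaps had a hotspot in WT alone, 82 had one in G170D alone, and 81.8% of WT gaps were kept, against 88.4% of tandem and 93.4% of divergent gaps. Counting only hotspots with their midpoint in the gap, 9.01% of gaps had one in WT alone and 8.01% had one only in the mutant.

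The kept share rose with gap length, and the difference from tandem gaps was widest in the shortest class. It was 71.3% (65.0 to 76.8) for convergent and 81.3% (73.5 to 87.2) for tandem gaps of 100 to 199 bp, 82.6% and 83.3% at 300 to 499 bp, and 95.7% and 95.6% at 800 to 1500 bp. The convergent and tandem intervals overlapped in each of the 5 classes, which does not show that the shares are alike. On each of the 16 chromosomes the G170D share was below the WT share. The chromosomes come from the same 2 libraries and the same lists of unequal length, so they are no independent counts. Lists of equal length were not compared per chromosome. WT shares ran from 45.5% of 55 gaps on chromosome VIII to 62.4% of 101 gaps on chromosome XVI, and G170D shares from 40% on chromosome VIII to 53.5% of 129 gaps on chromosome XV.

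Where a gap was accessible in both strains, the accessible bases were largely the same ones. In 594 of the 595 such gaps the hotspots of both strains had bases in common within the gap. Together they shared 139 kb, out of 165.4 kb covered in WT and 149.5 kb in G170D in these 595 gaps. Of the covered length in all 1299 convergent gaps, also those open in 1 strain, this is 75.2% in WT and 88.8% in G170D. The shared length was not computed for tandem or divergent gaps. The covered fraction per gap in WT and in G170D gave Spearman's rho of 0.75 and Pearson's r of 0.75 over the 1299 gaps, which share 2 libraries. Of the 595 gaps, 277 were less covered in G170D (46.6%, against 46.7% of all gaps with a hotspot in both), 118 were more covered (19.8%, against 21.1%) and 200 were equal. Their median covered length was 189 bp in G170D, compared with 213 bp in WT.

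Some gaps were open from end to end. WT hotspots covered 299 gaps from end to end (23.0%, against 30.9% of all gaps) and G170D hotspots 248 (19.1%, against 26.9%). In both strains 197 gaps were fully covered (15.2%, against 18.7% of tandem and 29.5% of divergent gaps). Of the 299 gaps fully open in WT, 71 were partly covered in G170D (23.7%, against 32.9% for tandem and 26.3% for divergent gaps). Another 31 had no G170D hotspot (10.4%, against 3.14% and 2.47%), and 23 of these were gaps of 100 to 199 bp. Of the 248 fully open in G170D, 34 were partly covered in WT (13.7%, against 19.5% for tandem and 22.1% for divergent gaps). Another 17 had no WT hotspot (6.85%, against 3.77% and 2.43%).

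**Figure D3:**
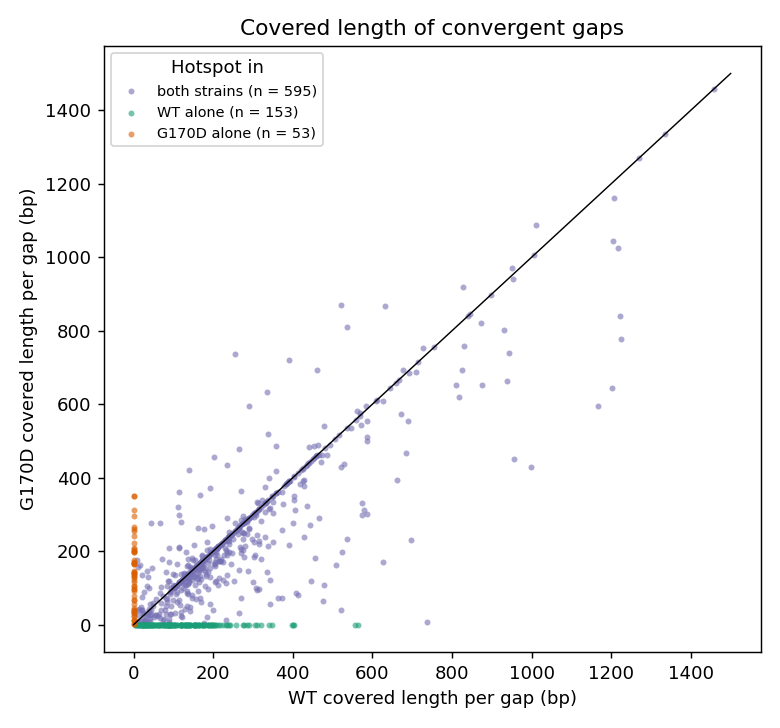
Covered length of each convergent gap in WT (x axis, bp) and in G170D (y axis, bp); each point is 1 gap, coloured by the strains with a hotspot, the line marks equal values, and the 498 gaps with none are left out. Many gaps lie on the line, and of the 595 with a hotspot in both strains, 277 lie below it and 118 above it.

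Most hotspots in convergent gaps ran into 1 or both flanking genes, and a minority lay wholly inside. These kinds of overlap were not counted for tandem or divergent gaps, so there is no background for them. The median convergent gap, at 249 bp, was shorter than the median hotspot of either list (WT 329 bp, G170D 326 bp). How far the kinds follow from these sizes alone was not tested. Of 786 overlaps in WT, 297 were by hotspots that spanned the whole gap and ran into both genes (37.8%, median width 1038 bp). Another 392 reached in from 1 gene (203 from the left, 189 from the right, together 49.9%), and 97 lay wholly inside the gap (12.3%, median width 165 bp). In G170D there were 671 overlaps, of which 248 spanned the gap, 324 reached in from 1 gene and 99 lay inside. A WT hotspot midpoint lay in 370 of the 748 gaps (49.5%, against 65.2% of all gaps with a WT hotspot), and a G170D midpoint in 357 of the 648 (55.1%, against 64.8%). Counts of the spanning and entering kinds were thus lower in G170D, whose whole list is shorter, and counts of enclosed hotspots were nearly equal. As shares of the overlaps the kinds were close. In G170D, 37.0% spanned the gap, 48.3% reached in from 1 gene and 14.8% lay inside. The hotspots that met a convergent gap made up 11.1% of the WT and 11.2% of the G170D list. By covered length, spanning hotspots gave 87.4 kb in WT and 67.4 kb in G170D, hotspots from 1 gene 76.5 and 65.3 kb, and enclosed hotspots 21.2 and 24.0 kb. Between ECM8 and SLM4 (chromosome II, 391292 to 391804), one of the 4 gaps named for the most hotspots, 249 bp (WT) and 233 bp (G170D) were covered, in each strain by 1 hotspot from either side.

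Most of these hotspots did not touch a promoter window. In 191 of the 748 gaps with a WT hotspot (25.5%, 22.5 to 28.8), a hotspot in the gap also touched the 500 bp upstream of some coding start, and the same held for 143 of 648 gaps in G170D (22.1%, 19.0 to 25.4). The other 557 WT and 505 G170D gaps were reached only by hotspots that met no such window, and 413 gaps were in this class in both strains. Gaps with a promoter-touching WT hotspot kept a hotspot in G170D in 85.3% of 191 cases (79.6 to 89.7), and the others in 77.6% of 557 cases (73.9 to 80.8). These intervals overlap.

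Shares also differed with the distance from a coding start. A WT hotspot overlapped 70.5% of the 319 gaps with the nearest coding start under 500 bp away, beyond a short flanking gene. The share was 53.4% of 500 gaps at 500 to 999 bp, 50.2% of 281 gaps at 1000 to 1499 bp, 54.4% of 114 gaps at 1500 to 1999 bp and 62.4% of 85 gaps at 2000 bp or more. G170D gave 65.2%, 43.2%, 42.3%, 47.4% and 60%. The interval under 500 bp (65.3 to 75.3 in WT and 59.8 to 70.2 in G170D) overlapped that at 2000 bp or more (51.7 to 71.9 and 49.4 to 69.8) in both strains, so these classes cannot be ranked. Beyond 500 bp the WT intervals of the 4 classes overlapped, while in G170D the interval at 2000 bp or more lay above those at 500 to 999 bp (38.9 to 47.6) and at 1000 to 1499 bp (36.7 to 48.2). Median gap length also differed between the 5 classes, from 232 to 300 bp, and its part in these shares was not tested.

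Open gaps lay beside open genes. Of the gaps fully covered in WT, 68.6% (63.1 to 73.6) had at least 1 flanking gene covered over 50% or more of its length, against 42.1% of partly covered gaps and 19.1% of gaps with no hotspot. In G170D the shares were 64.1%, 31.5% and 14.3%. In 119 of the 299 gaps fully open in WT and 91 of the 248 in G170D, a flanking gene was covered from end to end. A hotspot that spans a gap covers gene bases by its nature, so these shares describe width and are no independent measure.

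**Figure D4:**
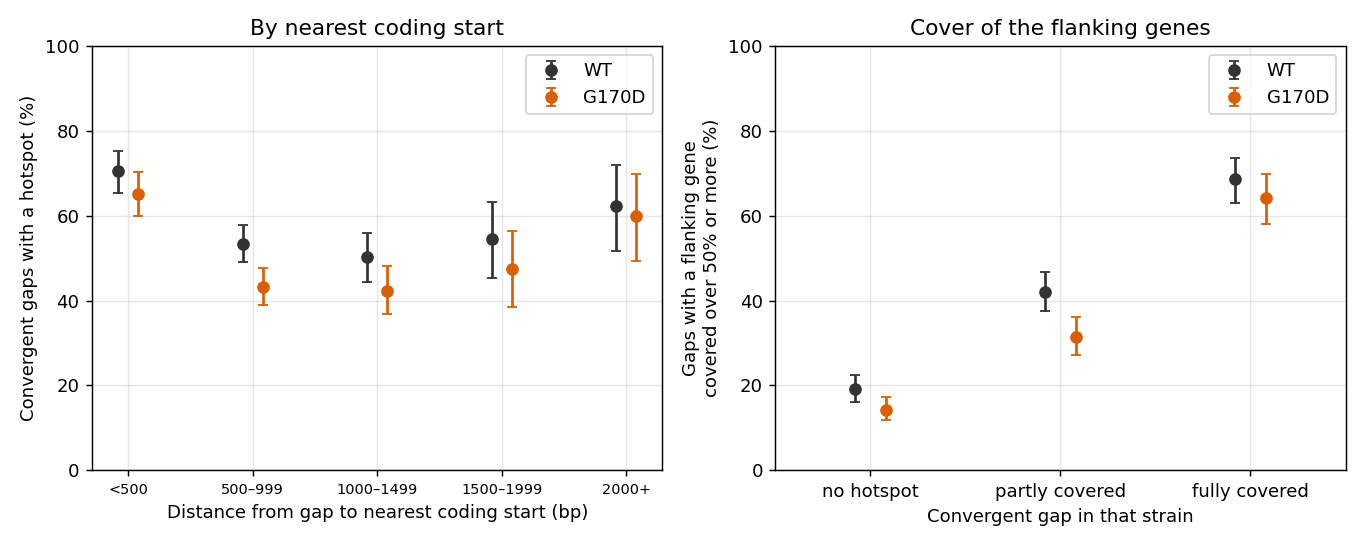
Left, share of convergent gaps with a hotspot (y axis, %) by distance to the nearest coding start (x axis, bp). Right, share of gaps with a flanking gene covered over 50% or more of its length (y axis, %) by the state of the gap in the same strain; points are shares with 95% Wilson intervals, WT dark and G170D orange. The left panel shows 70.5% and 65.2% for gaps near a start, with intervals that overlap those of the farthest class, and the share on the right goes from 19.1% to 68.6% in WT.

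Hotspots enclosed in a gap ranked low in their own list by the authors' score, which is used here only for ranks within a list. Their median score percentile was 27.8 in WT and 30.3 in G170D, against 79.8 and 75.3 for spanning hotspots. Of the 97 enclosed WT hotspots, 63 overlapped a G170D hotspot and 34 did not, and those 34 were narrower (median 86 bp against 191 bp). For 47 of the 63 the G170D partner was enclosed too. It was narrower in 36 pairs and wider in 11, with a median of 169 bp in G170D, compared with 220 bp in WT. These pairs leave out partners that ran beyond the gap. Of those, 7 reached in from the left gene, 6 from the right and 3 spanned the gap, and each was wider than its WT hotspot. The narrower widths therefore describe the 47 pairs and not all 63.

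Most of the highest-scoring enclosed hotspots covered similar lengths in the 2 strains. The top one in both lists lay between YDR210W-B and YDR210C-D (chromosome IV, gap 877426 to 878658), where WT had 668 and G170D 667 open bp and neither flanking gene had a covered base. The lists do not show where reads could be placed. A gene with no covered base therefore need not be closed, and whether hotspot edges follow such limits was not tested. Between RMD1 and NTH1, the neutral trehalase gene (chromosome IV, 449277 to 450219), the open lengths were 874 and 822 bp. Between RRP9, which encodes a protein of the U3 small nucleolar particle, and YPR137C-B (chromosome XVI, 804081 to 805000), the values were 313 and 332 bp. Between COS8 and ARN2, a siderophore transporter gene (chromosome VIII, 7547 to 8350), they were 727 and 752 bp, again with no covered base in either gene. Between YPR158W-B and YPR158C-D (chromosome XVI, 849981 to 850988) they were 271 and 365 bp. The gap between ARP10, a dynactin gene, and TMN2 (chromosome IV, 667859 to 669015) had 487 and 461 bp, in 2 hotspots per strain, of which the enclosed one was 453 and 429 bp wide. The tRNA gene YNCD0015C in this gap (668007 to 668080) had no covered base in either strain. In these 6 gaps the strains differed by at most 94 bp. Between YCR001W and the septin gene CDC10 (chromosome III, 116000 to 117379) the hotspot measured 942 bp in WT but 738 bp in G170D, the only one of the 6 top WT hotspots with a difference over 100 bp.

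Gaps open over more than 1 kb in both strains included some of the longest. Between FAA4, a fatty acyl-CoA synthetase gene, and RKR1, a ubiquitin ligase gene (chromosome XIII, 761892 to 763350), all 1459 bp were covered in both. Between REX3, an RNA exonuclease gene, and YLR108C (chromosome XII, 365331 to 366666), all 1336 bp were covered in both. The same held for the 1271 bp between RRT15 and MAS1 (chromosome XII, 490595 to 491865), which begin 1125 bp after the last annotated rRNA gene of the repeated rDNA locus. Between ATH1, the acid trehalase gene, and YPR027C (chromosome XVI, 619015 to 620424), the covered lengths were 1205 bp in WT and 1043 bp in the mutant. Between YPT7, a vacuolar Rab GTPase gene, and CDC5, the polo kinase gene (chromosome XIII, 267801 to 269018), the values were 1218 and 1025 bp. Between the sulfhydryl oxidase gene ERV1 and POP6, a gene of RNase P (chromosome VII, 544206 to 545680), they were 1207 and 1162 bp.

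With the full lists, large differences were more often losses. The counts in this paragraph rest on lists of unequal length and were not recomputed for lists of equal length. Covered length was at least 100 bp shorter in G170D in 154 gaps (11.9%, against 16.7% of all gaps) and at least 100 bp longer in 64 (4.93%, against 7.46%), and it was equal in 698, of which 498 had no hotspot. Of the 154 gaps with the shorter cover, 134 also had less cover over their 2 flanking genes together. Of the 64 with the longer cover, 38 had more cover and 24 had less cover over the flanking genes. Over all 1299 gaps, the flanking genes were less covered in G170D at 944 and more covered at 287.

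The largest single loss was between BER1 and YLR412C-A (chromosome XII, 949193 to 950266), where WT covered 736 bp and the mutant 8 bp. A 700 bp WT hotspot there entered from BER1 and met no G170D hotspot. Between the cyclin genes CLB2, which drives mitosis, and CLB5, which acts in S phase (chromosome XVI, 773129 to 773874), a 564 bp WT hotspot lay wholly in the gap and G170D had none. Its score percentile was 58.4, and CLB2 itself was covered over 39.9% in WT and 36.7% in G170D. CLB5 went the other way, with 0% covered in WT and 15.4% in G170D. Between STP2, an activator of amino acid permease genes, and ERG11, the lanosterol demethylase gene of sterol synthesis (chromosome VIII, 119440 to 120090), WT covered 557 bp and G170D none. Those were the 2 gaps of the 8 largest losses that had no G170D hotspot.

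In the other large losses both strains had a hotspot in the gap, with less cover in G170D. Between ALG1, an N-glycosylation enzyme gene, and YSA1, a Nudix hydrolase gene (chromosome II, 460222 to 461177), a 3040 bp WT hotspot covered the whole 956 bp gap and all of YSA1. In G170D a 540 bp hotspot covered 450 bp of the gap and entered YSA1, which all G170D hotspots together covered over 47.3%. Between ULS1, a Snf2-family ATPase gene, and the transporter gene THI72 (chromosome XV, 697335 to 698767), WT covered 1167 bp and G170D 594 bp, each with 2 hotspots, and a 313 bp WT hotspot that entered from ULS1 met none in G170D. Between PUG1, which encodes a protoporphyrin transporter, and YER186C (chromosome V, 560366 to 561704), it was 999 and 429 bp, and an enclosed 220 bp WT hotspot met none in G170D. Between PAM16, a gene of the mitochondrial import motor, and GSM1 (chromosome X, 227777 to 229024), it was 1201 and 645 bp. Between MNC1 and MUM2 (chromosome II, 351456 to 352192), 520 bp were open in WT, while the mutant had a single 39 bp hotspot. A 417 bp WT hotspot that entered from MUM2 met none in G170D, and neither flanking gene had a covered base in the mutant.

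Among the gains, 3 of the 8 largest had no WT hotspot at all. The largest gain was between DED1, an RNA helicase gene of translation initiation, and GEP3 (chromosome XV, 724726 to 725563), where WT covered 254 bp and the mutant 737 bp. The G170D hotspot there was 1311 bp wide and reached into DED1. With a separate hotspot further into the gene, DED1 was covered over 70.4% in G170D, and over 0% in WT. Between LAS17, an activator of actin assembly, and the ribosomal protein gene RPS30B (chromosome XV, 677841 to 678190), the whole 350 bp gap was open in G170D alone. A 3709 bp hotspot covered both genes entirely there, whereas WT covered 23.2% of LAS17 and 75.8% of RPS30B.

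The other gains were of both kinds, extended and enclosed. Between URA1, the dihydroorotate dehydrogenase gene, and OXP1 (chromosome XI, 26160 to 26826), a 349 bp hotspot enclosed in the gap was present in G170D alone, while cover of URA1 was 54.2% in WT and 4.13% in G170D. Between SBA1, which encodes a cochaperone of Hsp90, and PRR1 (chromosome XI, 220975 to 221343), 311 bp were covered in G170D and 0 in WT, by a hotspot at score percentile 14.6. SBA1 itself was covered over 22.4% in WT and 52.1% in G170D. Between MIN3 and SSO2, a gene of a plasma membrane SNARE (chromosome XIII, 625898 to 626920), the values were 522 and 871 bp. Between YHL041W and ARN1, a siderophore transporter gene (chromosome VIII, 17842 to 19087), cover was 391 bp in WT but 721 bp in the mutant, through an added enclosed hotspot of 310 bp. The gaps between ECM13 and the uridine permease gene FUI1 (291 and 595 bp) and between the RNA helicase gene DBP2 and CYB5, a cytochrome gene (335 and 632 bp), completed the 8.

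**Figure D5:**
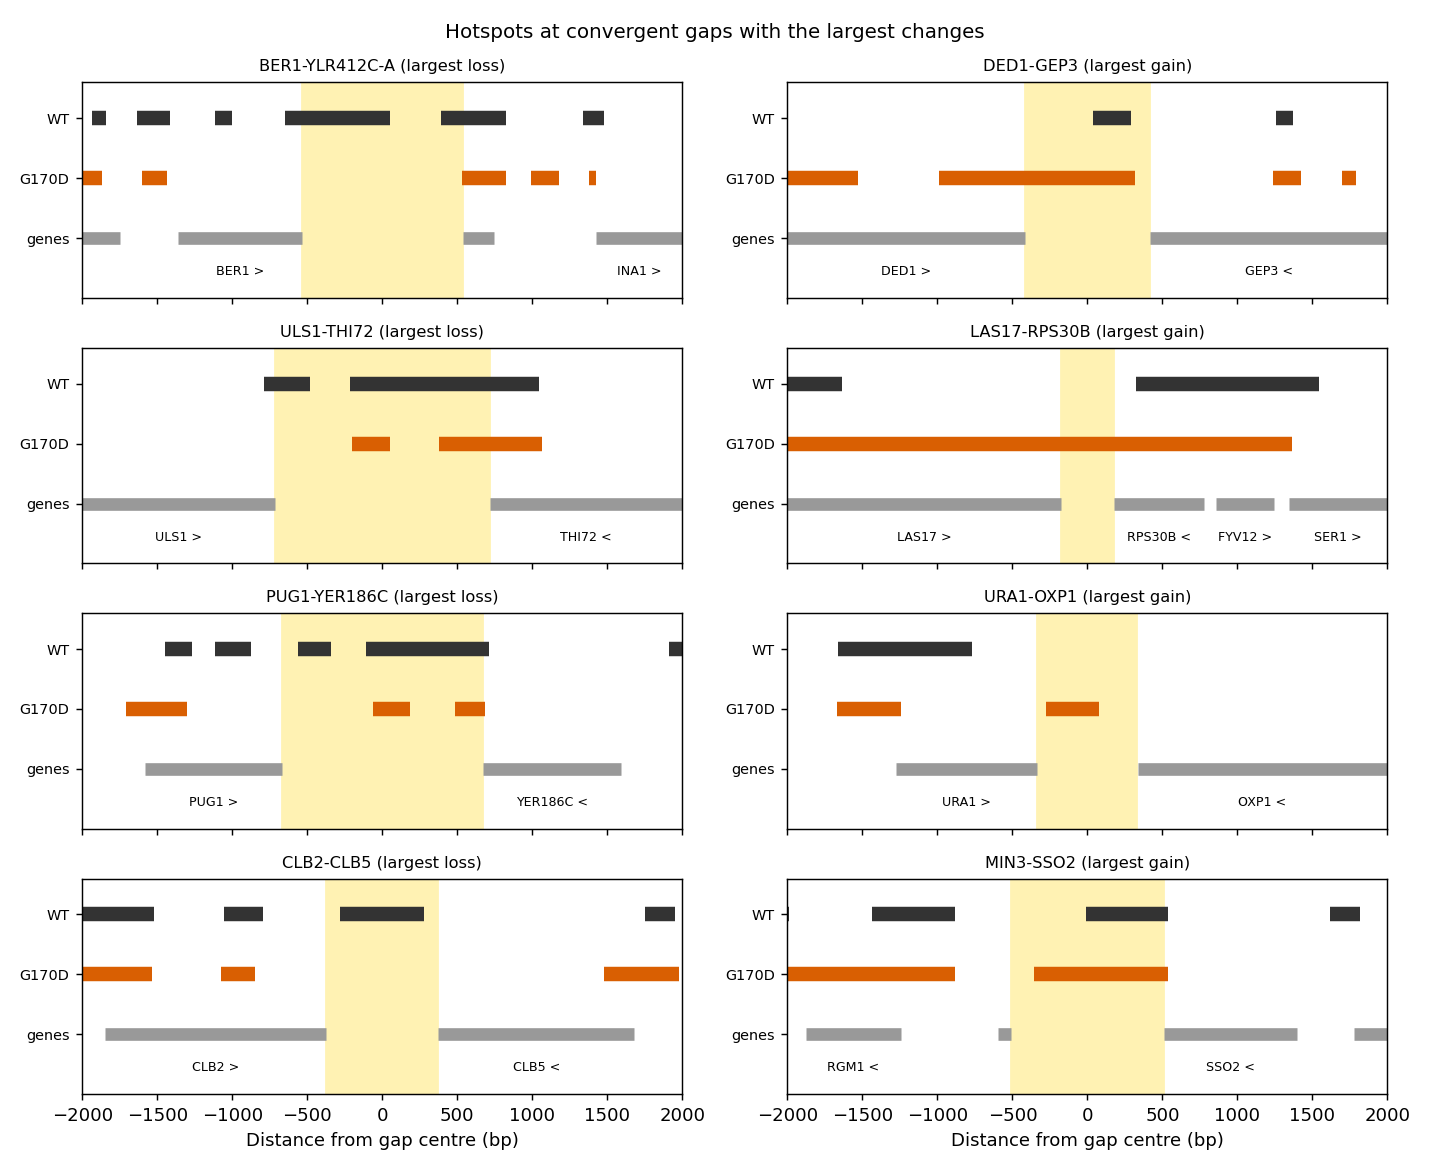
Hotspots in WT (dark, top row) and G170D (orange, middle row) and coding genes (grey, bottom row, with > for the plus and < for the minus strand) within 2000 bp of the gap centre (x axis, bp), for the 4 largest losses (left) and gains (right) of covered length; yellow marks the gap. CLB2-CLB5 has a 564 bp hotspot in WT alone, and in LAS17-RPS30B a single G170D hotspot crosses the gap and both genes.

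Gaps accessible in 1 strain held overlaps of many sizes. In the 153 gaps with a WT hotspot alone the median covered length was 108 bp (range 4 to 564), 38 had under 50 bp, 31 were fully covered, and in 51 the hotspot overlapped a G170D hotspot beyond the gap. In the 53 gaps with a G170D hotspot alone the median was 136 bp (3 to 350), 13 had under 50 bp, 17 were fully covered, and in 24 the hotspot overlapped WT beyond the gap. The nearest hotspot of the other strain was a median of 405 bp from the WT-alone gaps and 253 bp from the G170D-alone gaps, and it lay within 100 bp in 30 and 17 of them.

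Closed gaps were found in every length class, from 222 of 464 gaps of 100 to 199 bp (47.8%) to 17 of 87 gaps of 800 to 1500 bp (19.5%). The 498 gaps with none had a median length of 218.5 bp, against 288 bp for the 595 open in both, and a median distance of 913.5 bp to the nearest coding start, against 774 bp. Near chromosome ends, within 30 kb, 42 of 67 gaps had none (62.7%, 50.7 to 73.3), against 37.0% of the 1232 others. The longest closed gap was between MMP1, the S-methylmethionine permease gene, and GTT2, a glutathione transferase gene (chromosome XII, 19708 to 21137, 1430 bp). The 1308 bp between YHL009W-B and YHL008C (chromosome VIII), the 1084 bp between PHR1, the DNA photolyase gene, and YOR387C (chromosome XV), and the 1063 bp between PDR18, an ABC transporter gene, and YNR071C (chromosome XIV) were closed too. At least the first of these 4 gaps, between MMP1 and GTT2, lies within 30 kb of a chromosome end. Distances of the other gaps from an end are not given here. Whether reads could be placed in the 4 gaps is not known from the lists. Of their 8 flanking genes, 6 had no covered base in either strain. The other two were GTT2, with 6.70% covered in WT and 7.55% in G170D, and PHR1, with 0% and 3.24%.

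Transfer RNA and small nucleolar RNA genes carry their own promoters and lie in some of these gaps. The 45 gaps that held a non-coding gene were long (median 932 bp), and 42 of them had a WT hotspot and 40 a G170D hotspot, against 80.5% and 77.0% of all convergent gaps of 800 to 1500 bp. The 28 tRNA genes in convergent gaps were themselves less often overlapped than tRNA genes elsewhere. A WT hotspot overlapped 10 of 28 (35.7%, 20.7 to 54.2), against 155 of 247 elsewhere (62.8%, 56.6 to 68.5), and a G170D hotspot 9 of 28 (32.1%, 17.9 to 50.7), against 154 of 247 (62.3%, 56.2 to 68.2). The 18 tRNA genes without a WT hotspot lay a median of 96.5 bp from the nearest one, and 15 of them within 250 bp. Between MET17, a gene of methionine synthesis, and ACO1, the aconitase gene (chromosome XII, 733877 to 735211), 3 WT hotspots totalled 937 bp in the gap and 2 G170D hotspots 662 bp. The tRNA gene YNCL0038W (734802 to 734875) lay between the second and the third of the WT hotspots, with no covered base in either strain. The gap between GLC3, the glycogen branching enzyme gene, and YEL009C-A (chromosome V, 135235 to 136370) had 535 bp covered in WT and 810 in G170D, and its tRNA gene YNCE0009C had 0 and 73 bp. Between YOL107W and WSC3, a cell wall sensor gene (chromosome XV, 113131 to 114137), 953 and 940 bp were covered, the whole tRNA gene YNCO0002W among them in both strains.

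At small nucleolar RNA genes, which guide the modification of rRNA, the 13 genes in convergent gaps were overlapped in 10 cases in WT and 8 in G170D, close to the 49 and 37 of 63 elsewhere. SNR86 (chromosome XIII, 762110 to 763113), in the gap of FAA4 and RKR1, was covered in both strains over its 1004 bp. SNR37 (chromosome X, 228094 to 228479), in the gap of PAM16 and GSM1, had 386 covered bp in WT and 100 in the mutant. SNR46, in the gap of ERV1 and POP6, had 104 covered bp in WT and 197 in the mutant, while the tRNA gene in the same gap had 72 and 0 bp. SNR83, between MIN3 and SSO2, had 256 and 306 bp. Of the other non-coding genes, SNR6 (the U6 spliceosomal RNA) and RPR1 (the RNA of RNase P) were fully covered in both strains, over 112 and 369 bp. RPR1 lies between TIM9, a mitochondrial import chaperone gene, and PXP1 (chromosome V, 117475 to 118616), a gap with 1010 covered bp in WT and 1088 in the mutant. The CRS5 pseudogene, between DFG16 and HMS1 (chromosome XV, 388685 to 389770), was covered in both strains over its 210 bp, in a gap with 951 covered bp in WT and 971 in the mutant.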

How the data were processed

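DNase-seq hotspot lists of 1 WT and 1 G170D library were used, grouped by their source labels. The authors' deposited score has no stated meaning and served only for ranks within a list. Per the submitters' processing notes, FastQC 0.10.1 and Bowtie 1.0.0 were used with the sacCer3 build; the sources used here do not give the hotspot caller or its threshold. Hotspots of a list lay at least 151 bp apart, so the number and width of hotspots partly follow the caller, depth and digestion. Depth is unknown.

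Gaps were taken between 6002 coding genes of RefSeq R64, with strand from the systematic name; a nested or overlapping gene left no gap. Coverage was counted in Python 3.11.15 with pandas 2.3.3 and numpy 2.4.6, and intervals came from scipy 1.17.1. On simulated hotspots in 1299 gaps, 100 of 100 gaps open in 1 list were recovered. No p-value was made. Gaps were named by a rule: the largest shared cover (6), losses and gains (8 each), the highest-scoring enclosed hotspots (6 in WT, 4 in G170D), the most hotspots, the longest closed gaps and the longest covered gaps with non-coding genes. Members and rules were chosen with earlier results of these data known. No genome sequence was used here.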

Additional observations from a re-analysis of the deposited data

How the results depend on the processing

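No paired analysis was possible because each strain has 1 library. In 10 alternative settings, 65 of 99 values stayed within the main Wilson interval, the G170D share was below the WT share in all 10, and WT alone exceeded G170D alone in all 10. Keeping the higher-scoring 50% of each list gave shares of 39.7% (WT), 30.6% (G170D) and 56.4% (neither), kept 67.2%, covered lengths of 36.1% and 27.9%, 38.6% less covered and 41.5% with a WT midpoint, where 49.5% was the value with all hotspots. Counting midpoints gave 28.5%, 27.5% and 63.5%, 9.01% (WT alone), 8.01% (G170D alone), 68.4% kept, covered lengths of 27.1% and 25.1%, and 55.3% less covered. Equal list lengths gave 53.3% (WT), 9.70% (WT alone) and 6.31% (G170D alone). Requiring 50 bp of cover gave 51.6%, 44.5% and 44.3%, and 53.7% with a WT midpoint. Gaps of 200 to 800 bp gave 60.8%, 53.9% and 34.6%, with 50.9% less covered and 53.2% with a WT midpoint. With flanking genes of 1000 bp or more, the values were 53.4%, 46.8% and 42.4%, and 56.8% with a WT midpoint. Without chromosome ends 47.2% of the length was covered in WT. Leaving out gaps with non-coding genes, or those a promoter window reaches (an alternative chosen after seeing the data), kept all values within the interval. Merging hotspots within 50 bp changed nothing, since none lay that close. The midpoint rule gives no midpoint share of its own. Causes were not tested. Unknown depth limits every difference between strains.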
